A study of Mus musculus with 6 samples.

Results

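Autotaxin, the product of Enpp2, is a secreted enzyme that cuts lysophosphatidylcholine to the signalling lipid lysophosphatidic acid (LPA). Read counts of Enpp2 and of 8 further genes that sense or destroy LPA were examined in whole pancreatic islets of knockout and control mice. The 9 genes are Enpp2, the LPA receptor genes Lpar1, Lpar2, Lpar3, Lpar4 and Lpar6, and the lipid phosphate phosphatase genes Plpp1, Plpp2 and Plpp3, out of 56980 gene IDs in the deposited table. They were chosen by symbol as a pathway, at a time when the knockout-over-control differences in these libraries were known, so their differences are given as a description. All 9 matched a row of the table, and 7 passed the filter on low counts. Lpar3 and Lpar4 did not.

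The 3 knockout libraries came from mice labelled SSBP3F/F; MIP-CreER, and the 3 control libraries from littermates labelled SSBP3F/F. Both groups were 14 weeks old and in both the Ssbp3 alleles were floxed. SSBP3 binds LDB1, the partner protein of LIM-homeodomain factors. MIP-CreER is a Cre recombinase fused to an estrogen receptor domain and driven by the mouse insulin promoter, so it acts in beta cells. It was present only in the knockout mice, so the transgene and the loss of Ssbp3 cannot be told apart here. The agent that activates this recombinase, its timing, and whether a library holds 1 mouse or a pool were not stated in the labels. The p-values therefore reflect only how much these libraries spread, and some of that spread may be technical.

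LPA is made outside the cell, acts close to its source through receptors coupled to G proteins, and is soon broken down by phosphatases on the cell surface. LPAR1, LPAR2 and LPAR3 are related to the receptors of sphingosine-1-phosphate, while LPAR4, LPAR5 and LPAR6 belong to the family of purinergic P2Y receptors. Autotaxin is best known as a product of fat tissue and of the choroid plexus, and in mice LPA has been tied to glucose tolerance and insulin secretion.

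Library totals ranged from 14907641 to 93841878 counts in knockout islets and from 17587055 to 225428920 in control islets, with knockout 1 and control 1 the shallowest of their groups. Values are CPM, reads of a gene per 1e6 reads of the library, with library sizes scaled by trimmed mean of M-values (TMM) factors. A gene is called when its p from the edgeR quasi-likelihood test, adjusted by Benjamini-Hochberg for the 18558 genes that passed the filter, was under 0.05. By that rule 7.07% of all genes tested were called, 3.72% higher and 3.35% lower in knockout islets. Ssbp3 itself measured 52.2, 58.1 and 57.1 CPM in knockout 1, 2 and 3, against 65.8, 81.3 and 74.2 CPM in control 1, 2 and 3. The groups did not overlap, but Ssbp3 missed the threshold (edgeR adjusted p = 0.0581) at a log2 fold change of -0.40 with an SE of 0.117, and counts over the whole gene do not measure recombination in beta cells. The summed level of 10 beta-cell markers was 141769 to 159527 CPM in knockout and 188856 to 243871 CPM in control libraries, and that of 12 acinar markers 24669 to 84504 CPM in knockout and 31309 to 63053 CPM in control libraries. Islet genes were thus abundant in every library, and exocrine transcripts were present in every library too.

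Enpp2 was higher in knockout islets in every library. Enpp2 (ENSMUSG00000022425) measured 1060, 789 and 890 CPM in knockout 1, 2 and 3, against 130, 122 and 111 CPM in control 1, 2 and 3. The lowest knockout library stood far above the highest control library, and each group held its 3 values close together. Enpp2 averaged 913 ± 137 CPM in knockout islets and 121 ± 9.53 CPM in control islets (SD, n = 3 each), a 7.54-fold difference. The log2 fold change was 2.91 (SE 0.150, edgeR adjusted p = 1.757e-06), and Enpp2 had the smallest p-value of all genes tested, while 92 genes had a larger log2 fold change. These values rest on 16397 to 93902 counts in a knockout library and 2303 to 24636 counts in a control library. Enpp2 kept its call in all 15 alternatives, with log2 fold changes between 2.80 and 3.01 and adjusted p up to 0.00425, the value without both shallow libraries.

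In rank of CPM among all gene IDs, Enpp2 stood at positions 65, 92 and 60 in knockout 1, 2 and 3, and at positions 841, 962 and 1086 in control 1, 2 and 3. Per kilobase of exon, which makes levels of different genes comparable, Enpp2 reached 183, 137 and 154 CPM per kb in knockout 1, 2 and 3, against 22.5, 21.2 and 19.2 CPM per kb in control 1, 2 and 3. Enpp2 thus stood among the more abundant transcripts of each knockout library. Enpp2 made up 0.11%, 0.0756% and 0.100% of all counts in knockout 1, 2 and 3, against 0.0131%, 0.0111% and 0.0109% in control 1, 2 and 3.

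**Figure D1:**
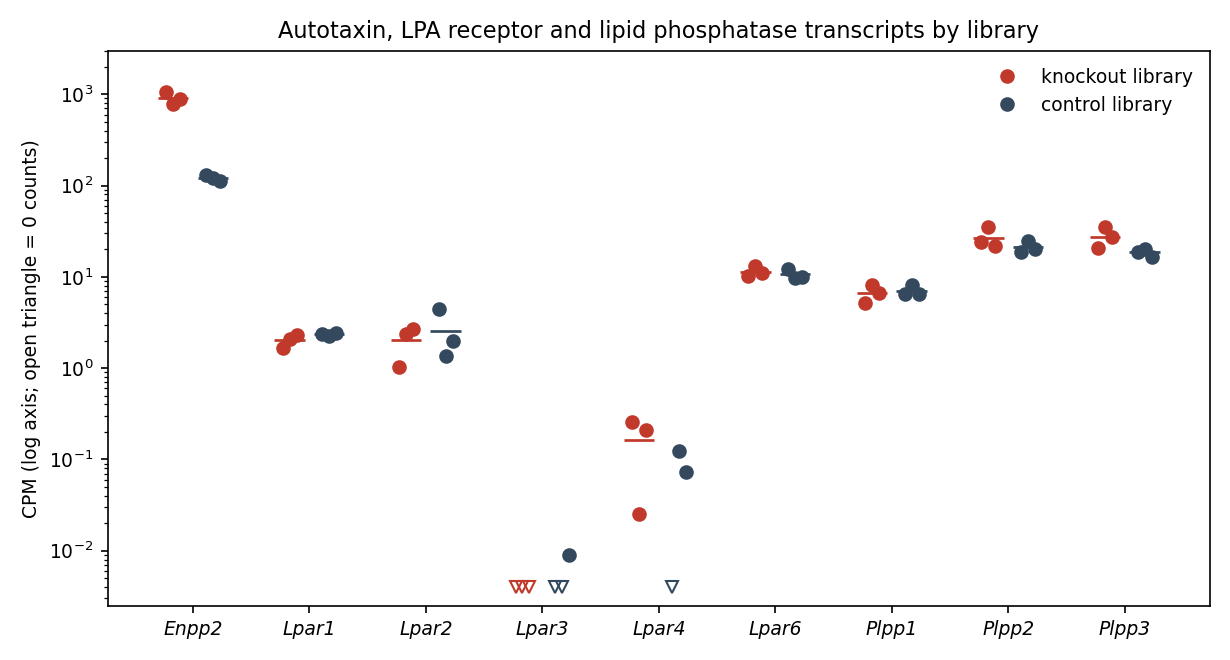
CPM of the 9 genes on a log axis, with a point for each library, knockout left of control, a bar at the group mean where all 3 libraries had counts, and open triangles for libraries with 0 counts. Enpp2 lies between 789 and 1060 CPM in knockout libraries and between 111 and 130 CPM in control libraries, while the points of the 5 receptor genes overlap between the groups or lie at the floor.

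A noncoding gene on the opposite strand, Gm26684 (ENSMUSG00000097286), shares 345 exon bases with Enpp2, or 5.97% of the exon bases of Enpp2. Gm26684 measured 8.54, 4.14 and 3.94 CPM in knockout 1, 2 and 3, against 0.564, 0.199 and 0.545 CPM in control 1, 2 and 3. It was also higher in every knockout library (log2 fold change 3.69, SE 0.476, edgeR adjusted p = 0.000795) and was singled out after its values were seen. No source used here gives the strand setting of the counting, so reads of Gm26684 and Enpp2 cannot be told apart where they overlap. Enpp2 exceeded Gm26684 by 124-fold to 226-fold in knockout libraries and by 204-fold to 615-fold in control libraries.

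The receptor genes were expressed at far lower levels per kb of exon than Enpp2, and none of the 3 tested was called. Lpar6 (ENSMUSG00000033446), whose product signals through G proteins, was the most abundant of them. It measured 10.3, 13.04 and 10.9 CPM in knockout 1, 2 and 3, against 12.1, 9.83 and 9.98 CPM in control 1, 2 and 3. The groups overlapped (log2 fold change 0.12, SE 0.177, edgeR adjusted p = 0.766). Lpar6 lies inside the tumour suppressor gene Rb1 on the opposite strand and shares 408 exon bases with it, 7.56% of its own. Rb1 measured 15.3, 13.9 and 19.0 CPM in knockout 1, 2 and 3, against 12.8, 9.01 and 13.6 CPM in control 1, 2 and 3, and was not called (edgeR adjusted p = 0.200).

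Lpar1 (ENSMUSG00000038668), the receptor gene best known from glia and fibroblasts, measured 1.68, 2.07 and 2.29 CPM in knockout 1, 2 and 3, against 2.37, 2.24 and 2.43 CPM in control 1, 2 and 3. Knockout 3 lay above control 2, so the groups overlapped (log2 fold change -0.20, SE 0.316, edgeR adjusted p = 0.771). Lpar2 (ENSMUSG00000031861), a receptor gene of epithelia and blood cells among others, measured 1.03, 2.37 and 2.68 CPM in knockout 1, 2 and 3, against 4.402, 1.37 and 1.97 CPM in control 1, 2 and 3. Its highest value was in control 1, a shallow library with 78 counts of the gene, and its lowest in knockout 1, the other shallow library, with 16. The log2 fold change of Lpar2 was -0.25 (SE 0.468, edgeR adjusted p = 0.811), and it changed sign to 0.60 without these 2 libraries, to 0.32 without control 1 alone and to 0.03 without knockout 1 alone. No direction can be given for Lpar2 at this depth.

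Lpar4 (ENSMUSG00000049929), a receptor gene with a role in blood and lymph vessels, had 4, 2 and 22 counts in knockout 1, 2 and 3, against 0, 10 and 16 counts in control 1, 2 and 3. Lpar3 (ENSMUSG00000036832), known for its role in embryo implantation in mice, had 0 counts in all 3 knockout libraries, against 0, 0 and 2 counts in control 1, 2 and 3. A count of 3, taken as the floor, equals 0.0284 to 0.194 CPM in a knockout library and 0.0135 to 0.169 CPM in a control library. Lpar3 was thus not detectable at this depth, and Lpar4 was near the floor, so that no fold is given for either. Such floors cover counting error only, and take 1 count as 1 read.

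The 3 phosphatase genes encode enzymes that remove the phosphate of LPA at the outer face of the cell. Plpp3 (ENSMUSG00000028517), known for its role in vascular development in mice, measured 20.7, 34.9 and 27.1 CPM in knockout 1, 2 and 3, against 18.8, 20.1 and 16.7 CPM in control 1, 2 and 3. Every knockout library lay above every control library, by a narrow margin between knockout 1 and control 2. Plpp3 averaged 27.6 ± 7.13 CPM in knockout and 18.5 ± 1.73 CPM in control islets (SD, n = 3 each) and missed the threshold (edgeR adjusted p = 0.0750) at a log2 fold change of 0.58 with an SE of 0.181. It was called in 5 of 15 alternatives, with adjusted p from 0.00743 to 0.291 over the 15. Plpp3 and Enpp2 were the 2 of 7 tested genes whose groups did not overlap, both higher in knockout islets, as were 14.0% of all genes tested.

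Plpp2 (ENSMUSG00000052151) measured 23.9, 34.8 and 21.9 CPM in knockout 1, 2 and 3, against 18.8, 24.5 and 20.4 CPM in control 1, 2 and 3. The groups overlapped (log2 fold change 0.34, SE 0.183, edgeR adjusted p = 0.315). Plpp1 (ENSMUSG00000021759) measured 5.24, 8.22 and 6.74 CPM in knockout 1, 2 and 3, against 6.55, 8.11 and 6.41 CPM in control 1, 2 and 3, also with overlap (log2 fold change -0.05, SE 0.222, edgeR adjusted p = 0.929). Plpp1 shares 452 exon bases, 25.8% of its own, with Mtrex, an RNA helicase gene on the opposite strand. Mtrex measured 24.1, 26.8 and 33.2 CPM in knockout 1, 2 and 3, against 24.5, 29.3 and 29.5 CPM in control 1, 2 and 3, with an edgeR adjusted p of 0.972 and a log2 fold change of 0.01, whose sign turned with upper-quartile factors and with length and GC offsets. All 3 phosphatase genes had their highest knockout value in knockout 2, the library with the highest acinar sum (84504 CPM), and all 3 had their highest control value in control 2, which led the controls in that sum with 63053 CPM. The part of exocrine tissue in these values was not tested. The log2 fold change of Plpp3 was 0.38 without knockout 2 (edgeR adjusted p = 0.291), 0.75 without knockout 1 (edgeR adjusted p = 0.0378) and 0.76 without both shallow libraries (edgeR adjusted p = 0.134).

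**Figure D2:**
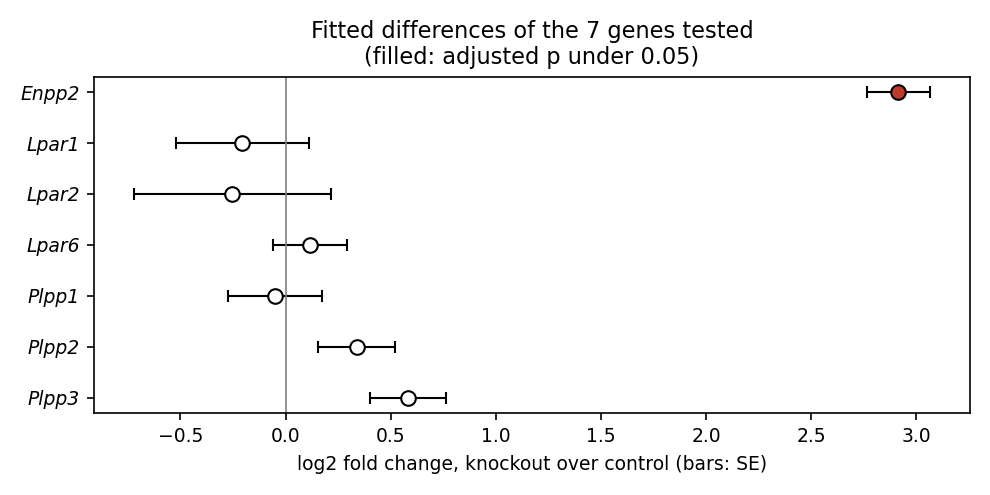
Log2 fold changes of knockout over control for the 7 genes that passed the filter, with bars of 1 SE and filled points for called genes. Enpp2 stands at 2.91, and the other 6 lie between -0.25 and 0.58.

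Of the 7 genes tested, 1 was called, Enpp2, beside the 7.07% called among all genes. Since the 9 genes were taken up with these differences known, nothing is read from that count. The median log2 fold change of the 7 was 0.12, against -0.0016 over all genes tested.

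In both groups the levels per kb of exon ran in the order Enpp2, Plpp2, Plpp3, Plpp1, Lpar6, Lpar1, Lpar2, Lpar4, Lpar3. In knockout islets the means per kb were 158 for Enpp2, 16.2 for Plpp2, 8.72 for Plpp3, 3.85 for Plpp1, 2.12 for Lpar6, 0.470 for Lpar1 and 0.348 for Lpar2. In control islets they were 21.0 for Enpp2, 12.8 for Plpp2, 5.87 for Plpp3, 4.01 for Plpp1, 1.97 for Lpar6, 0.547 for Lpar1 and 0.442 for Lpar2. Lpar1 and Lpar2 overlapped in range within each group, as did Lpar4 and Lpar3 in control islets, and the other neighbours in the order did not overlap. In knockout islets, though, Lpar4 had only 2 counts in knockout 2, under the floor of 3. The order of Lpar4 and Lpar3 is thus not resolved in either group.

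The 5 receptor genes together reached 2.55, 3.31 and 3.07 CPM per kb in knockout 1, 2 and 3, against 3.54, 2.61 and 2.77 CPM per kb in control 1, 2 and 3. The summed receptor level thus overlapped between the groups. Enpp2 per kb was 72.1, 41.3 and 50.2 times that sum in knockout 1, 2 and 3, against 6.35, 8.13 and 6.93 times in control 1, 2 and 3. Relative to the summed phosphatases, Enpp2 per kb was 7.64, 3.71 and 6.00 times as high in knockout 1, 2 and 3, against 1.07, 0.821 and 0.903 times in control 1, 2 and 3. In control islets the transcripts of Enpp2 and the sum of these 3 phosphatases were therefore of like abundance per length. In knockout islets Enpp2 exceeded that sum in every library. The related phosphatase gene Plpp5, which is not in the sum, averaged 31.1 CPM per kb in control and 23.2 CPM per kb in knockout islets.

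**Figure D3:**
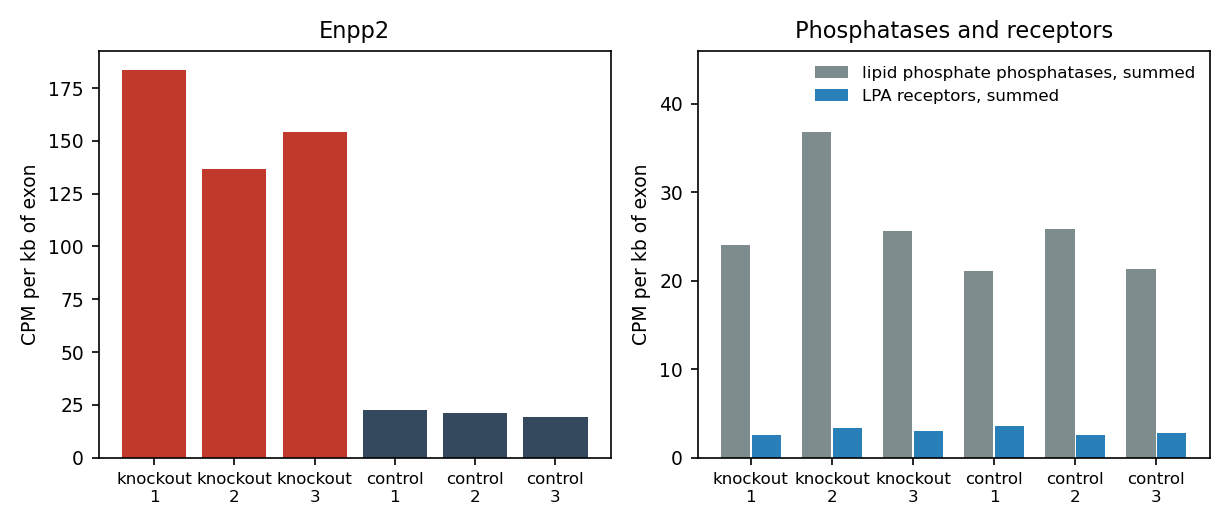
CPM per kb of exon in each library, knockout left of control, for Enpp2 (left panel) and for the summed phosphatases and summed receptors (right panel, on its own scale). Enpp2 lies at 137 to 183 in knockout and 19.2 to 22.5 in control libraries, while the receptor sum stays between 2.55 and 3.54 in all 6.

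RefSeq promoter windows on build GRCm38.p6, from 250 bases before to 50 bases after a gene start, were found for 7 of the 9 genes. None was found for Enpp2 or Plpp1. Those of Plpp3, the phosphatase gene with the largest difference, and of Lpar6, the most abundant receptor gene, are shown because SSBP3 works with LDB1 and LIM-homeodomain factors, whose binding sites commonly hold the letters TAAT. Capitals mark TAAT on either strand (ATTA where it lies on the other strand). The Plpp3 window is chr4:105157097-105157396 on the plus strand, and the Lpar6 window is chr14:73237641-73237940 on the plus strand.
Plpp3: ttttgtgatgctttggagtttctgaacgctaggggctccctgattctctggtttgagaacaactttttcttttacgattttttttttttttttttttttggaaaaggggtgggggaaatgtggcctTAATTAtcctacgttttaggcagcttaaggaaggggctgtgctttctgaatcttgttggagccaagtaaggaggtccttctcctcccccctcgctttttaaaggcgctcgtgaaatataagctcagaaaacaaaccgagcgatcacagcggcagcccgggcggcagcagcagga
Lpar6: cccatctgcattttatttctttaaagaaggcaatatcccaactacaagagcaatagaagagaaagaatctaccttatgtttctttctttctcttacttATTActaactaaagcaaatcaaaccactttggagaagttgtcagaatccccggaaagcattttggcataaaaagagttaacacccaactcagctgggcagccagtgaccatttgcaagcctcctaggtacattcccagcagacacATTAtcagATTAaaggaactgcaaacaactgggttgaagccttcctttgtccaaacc

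TAAT was searched on both strands with TTCNNNGAA (the STAT motif), TATAAA (the TATA box) and the palindrome bound by steroid receptors. The palindrome TAATTA, which contains TAAT on each strand, was added only after it had been seen in these windows. The Plpp3 window holds TAAT 2 times, overlapping in 1 TAATTA that begins 124 bases before the gene start, and the Lpar6 window holds TAAT 3 times and no TAATTA. Over all 32851 promoter windows of the same length, 58.0% hold TAAT, 5.29% TAATTA, 8.30% TTCNNNGAA, 13.6% TATAAA and 0.0578% the steroid receptor palindrome. In the 9 windows of the 7 genes, TAAT was also found 5 times in Lpar4 and 3 times in 1 of 3 Lpar1 windows, TAATTA in that same Lpar1 window, and TATAAA in Lpar4. TTCNNNGAA and the steroid receptor palindrome were in none of the 9. A match of these letters is a description only.

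Of 96 further genes of the pathway in 8 lists, 85 were tested, 4 were called higher and 1 was called lower in knockout islets. The median log2 fold change of the 85 was 0.12. The share of 5.88% called compares with 7.07% of all genes, so it is no larger than the background. The lists were drawn up with earlier results of these data known.

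Among other phosphatase genes, 1 of 12 tested was higher and 1 lower. Lpin1, which encodes a phosphatidic acid phosphatase of glycerolipid synthesis, measured 34.4, 33.4 and 43.6 CPM in knockout 1, 2 and 3, against 22.1, 16.1 and 19.5 CPM in control 1, 2 and 3. It rose without overlap (log2 fold change 0.96, SE 0.158, edgeR adjusted p = 0.00369), and the call was lost only without both shallow libraries (adjusted p = 0.0689). Plpp5, a phosphatase gene related to Plpp1, measured 87.5, 81.1 and 76.9 CPM in knockout 1, 2 and 3, against 98.1, 117 and 114 CPM in control 1, 2 and 3. It fell (log2 fold change -0.43, SE 0.114, edgeR adjusted p = 0.0413), a call that held without control 1 but not without any other single library (edgeR adjusted p of 0.199 for control 2, 0.0928 for control 3, 0.0866 for knockout 1, 0.130 for knockout 2 and 0.0932 for knockout 3) nor without both shallow ones (0.120).

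Among 18 genes of G proteins and their effectors, all tested, 2 were called, both higher. Gnai2, a subunit of the inhibitory G protein, measured 752, 663 and 680 CPM in knockout 1, 2 and 3, against 414, 403 and 576 CPM in control 1, 2 and 3 (log2 fold change 0.59, SE 0.154, edgeR adjusted p = 0.0380). Gna13, a subunit that links receptors to the actin cytoskeleton, measured 47.6, 48.6 and 50.1 CPM in knockout 1, 2 and 3, against 32.6, 35.3 and 39.9 CPM in control 1, 2 and 3 (log2 fold change 0.44, SE 0.120, edgeR adjusted p = 0.0465). Both genes were higher in all 3 knockout libraries. The edgeR adjusted p of Gnai2 was 0.157 when control 1 was left out, 0.164 for control 2, 0.140 for knockout 1, 0.0663 for knockout 2 and 0.327 for both shallow libraries, so each of these ended its call. For Gna13 it was 0.155 when control 1 was left out, 0.181 for control 2, 0.100 for knockout 1, 0.112 for knockout 2, 0.0834 for knockout 3 and 0.228 for both shallow libraries. Its call also ended with upper-quartile factors (0.0596) and with length and GC offsets (0.0614).

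A list of 21 genes held targets of the factors SRF and MRTF or YAP and TAZ, which LPA activates in other cells, together with Srf, Yap1, Wwtr1 and Tead1, which encode such factors or a partner. Of these 20 were tested and 1 was called, higher, with a median log2 fold change of 0.17. The gene that rose was Tead1, a DNA-binding partner of YAP, at 28.1, 27.1 and 38.4 CPM in knockout 1, 2 and 3, against 24.0, 16.3 and 19.3 CPM in control 1, 2 and 3 (log2 fold change 0.66, SE 0.179, edgeR adjusted p = 0.0429). The call ended when control 2 was left out (edgeR adjusted p = 0.186), as for control 3 (0.0775), knockout 1 (0.0750), knockout 3 (0.117) and both shallow libraries (0.120). The classical targets Ccn1 (log2 fold change 0.27, edgeR adjusted p = 0.837) and Ccn2 (-0.10, edgeR adjusted p = 0.880) were not called and were picked after their values were seen. Their libraries overlapped, with 13.7, 35.96 and 10.3 CPM of Ccn1 in knockout 1, 2 and 3, against 17.04, 21.4 and 11.9 CPM in control 1, 2 and 3.

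**Figure D4:**
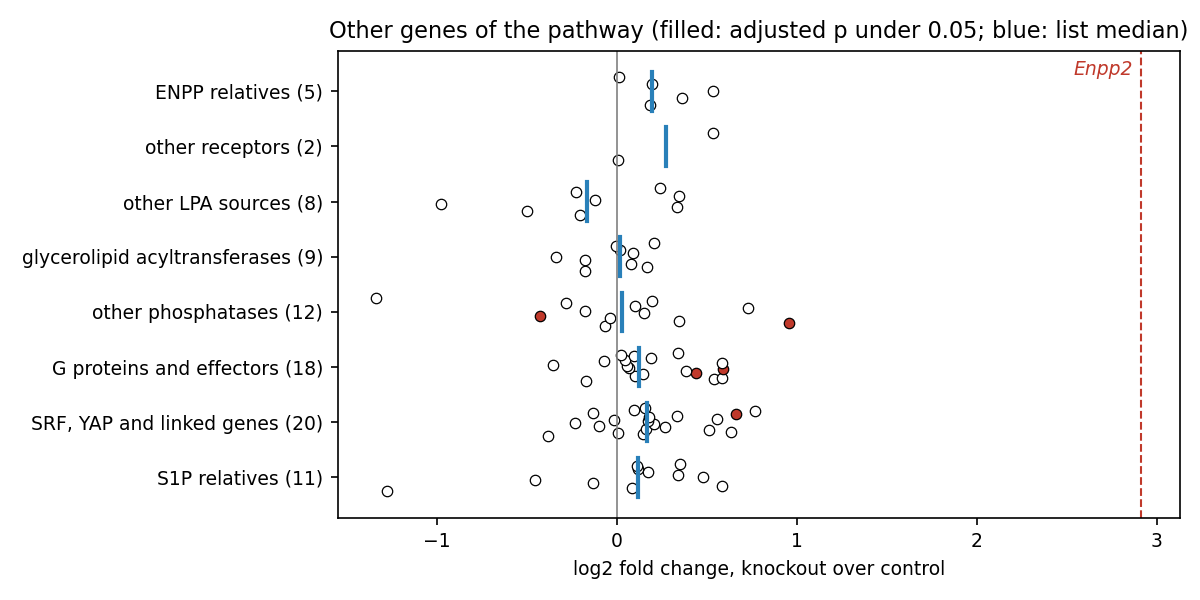
Log2 fold changes of knockout over control for the 85 tested genes of 8 pathway lists, with a point for each gene, filled where called, a blue line at the list median and a dashed line at Enpp2. The called genes lie between -0.43 and 0.96, against 2.91 for Enpp2.

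None of the other lists held a gene called by edgeR. At an unadjusted p under 0.05, they held 1 Enpp2 relative, 1 LPA source, 2 genes of sphingosine-1-phosphate, no acyltransferase and no receptor. DESeq2 called 1 Enpp2 relative, 1 LPA source and 1 gene of sphingosine-1-phosphate. Among 5 tested relatives of Enpp2, Enpp4 had the smallest p, with a log2 difference of 0.53 that missed the threshold (edgeR adjusted p = 0.0728), followed by Enpp5 at 0.19 (edgeR adjusted p = 0.423). Enpp5 reached 26.6, 27.4 and 32.6 CPM per kb in knockout 1, 2 and 3, against 25.7, 22.2 and 28.0 CPM per kb in control 1, 2 and 3. Its mean level per kb was 28.9 in knockout and 25.3 in control islets, while Enpp2 averaged 158 in knockout and 21.0 in control islets. Of other enzymes that can make LPA, 8 were tested, with log2 differences of -0.50 for Gde1 (edgeR adjusted p = 0.0690) and 0.33 for Gdpd1 (edgeR adjusted p = 0.284). Of 9 tested acyltransferases that make or use LPA inside the cell, Agpat5 had -0.34 (edgeR adjusted p = 0.234) and Agpat1 -0.18 (edgeR adjusted p = 0.398). Of other receptors, 2 were tested, P2ry10 and Gpr35, with edgeR adjusted p of 0.881 and 0.994. Lpar5, the remaining known LPA receptor gene, did not pass the filter, at 0.129, 0.0250 and 0.0569 CPM in knockout 1, 2 and 3, against 0, 0.0373 and 0.0631 CPM in control 1, 2 and 3.

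Bulk islet RNA does not tell more cells of a type from more RNA per cell, so the cell that carries the additional Enpp2 transcripts cannot be named. Of 10 beta-cell markers 3 were lower, of 4 delta-cell markers 2 were lower, of 10 duct markers 2 were higher, of 12 endothelial markers 1 was higher and 1 lower, and of 12 acinar markers 1 was lower. Over all genes tested, 3.72% were called higher and 3.35% lower. None of 8 alpha-cell, 2 PP-cell, 12 stromal, 9 Schwann-cell, 10 macrophage or 3 tested of 8 lymphoid markers was called by edgeR. At an unadjusted p under 0.05 these held 4 alpha-cell markers, 1 each of the PP-cell, stromal, Schwann-cell and macrophage lists, and 0 lymphoid ones. The summed duct markers reached 2557 to 3939 CPM in knockout and 3265 to 4715 CPM in control libraries, a sum carried by a few abundant genes. Within the list, Cftr, a chloride channel gene, measured 1.94, 1.47 and 1.01 CPM in knockout 1, 2 and 3, against 0.339, 0.0995 and 0.230 CPM in control 1, 2 and 3. Cftr rose without overlap (log2 fold change 2.82, SE 0.616, edgeR adjusted p = 0.0169), by a fold of 7.04, which is near that of Enpp2. Its edgeR adjusted p was 0.0786 when control 2 was left out, 0.0569 for knockout 1, 0.0514 for knockout 2 and 0.100 for both shallow libraries, each of which ended the call. Spp1, the secreted protein osteopontin, measured 350, 732 and 823 CPM in knockout 1, 2 and 3, against 1158, 1481 and 1390.4 CPM in control 1, 2 and 3. Its groups did not overlap either, and it missed the threshold (edgeR adjusted p = 0.0550) at a log2 fold change of -1.08. The log2 fold changes of the keratin genes Krt7, Krt8, Krt18 and Krt19 lay between -0.11 and 0.05, and none was called. The summed stromal markers reached 123 to 163 CPM in knockout and 118 to 226 CPM in control libraries, and the endothelial ones 358 to 449 CPM in knockout and 315 to 377 CPM in control libraries. The Schwann-cell markers summed to 17.6 to 29.8 CPM in knockout and 21.4 to 32.4 CPM in control libraries, the macrophage markers to 91.8 to 181 CPM in knockout and 96.3 to 110 CPM in control libraries, and the lymphoid markers to 1.81 to 5.24 CPM in knockout and 2.34 to 5.76 CPM in control libraries. The delta-cell markers summed to 2123 to 2582 CPM in knockout and 3327 to 5290 CPM in control libraries, lower without overlap, as were the beta-cell sums. The alpha-cell sums, 18843 to 23084 CPM in knockout and 21136 to 32499 CPM in control libraries, overlapped. So did the PP-cell sums, 4331 to 6080 CPM in knockout and 5346 to 8876 CPM in control libraries. No marker was at 0 in all 6 libraries. The part of any cell type in the Enpp2 values was not tested.

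**Figure D5:**
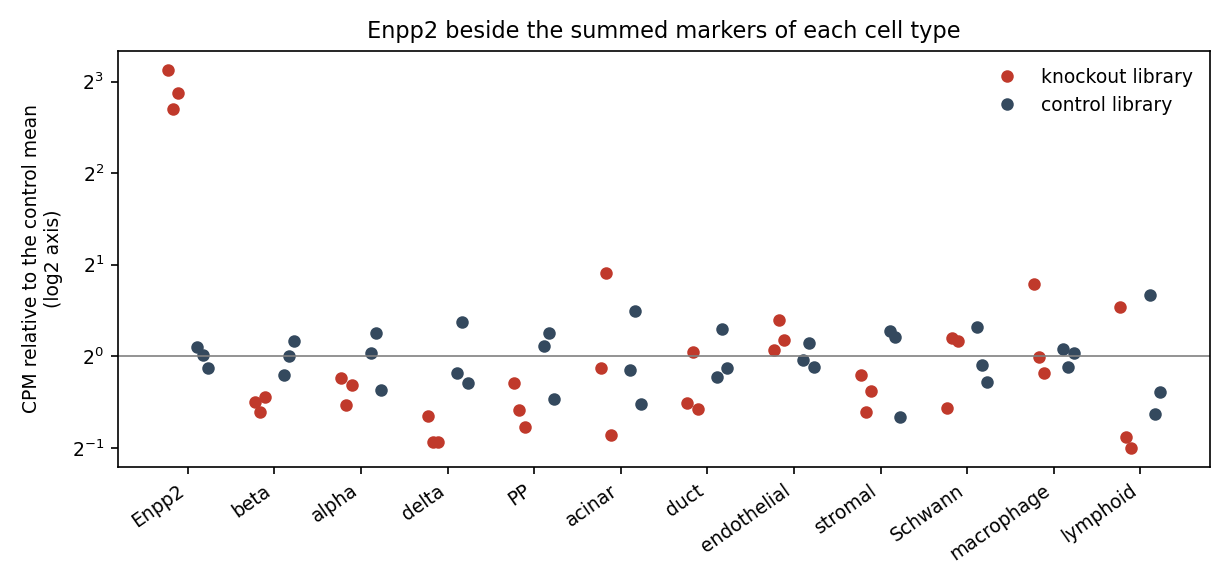
CPM of Enpp2 and summed CPM of the markers of 11 cell types in each library, divided by the control mean, on a log2 axis, with knockout points left of control points. The knockout libraries stand apart above the controls for Enpp2, and below them for the beta-cell and delta-cell sums. The largest value of a marker sum is that of the acinar list in knockout 2.

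Of the 4 genes whose pattern over the 6 libraries lay closest to that of Enpp2, 3 are given here, Rasgrp1, Gbp8 and Aqp4. Likeness was the root mean square difference of log2 CPM, each gene centred on its control mean, among 10038 genes with a mean of at least 5 CPM. It was 0.13 for Rasgrp1, which encodes an exchange factor of RAS, 0.47 for Gbp8, a guanylate-binding protein, and 0.47 for Aqp4, a water channel. Rasgrp1 measured 13.4, 11.7 and 11.1 CPM in knockout 1, 2 and 3, against 1.47, 1.59 and 1.60 CPM in control 1, 2 and 3. Gbp8 measured 30.6, 28.5 and 16.4 CPM in knockout 1, 2 and 3, against 6.49, 3.38 and 3.11 CPM in control 1, 2 and 3. The measure takes up the difference between the groups, so the 3 genes are all higher in knockout islets by construction.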

How the data were processed

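Total RNA of whole islets was sequenced. The submitters' processing notes name build GRCm39 (mm39), STAR 2.7.3a, featureCounts, FastQC 0.11.9 and Trim Galore 0.6.7, and no source used here states the annotation release or the strand setting. The authors deposited unnormalized counts per Ensembl gene ID, and 62.3% to 73.2% of the nonzero counts of a library were even, which bears on what 1 count stands for. Column names show a library's group and not its mouse, so libraries are numbered by column.

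The test was that of edgeR 4.0.16, run in R 4.3.3 (filterByExpr, TMM factors, robust quasi-likelihood test, Benjamini-Hochberg adjustment over 18558 genes), after a check on simulated data. The standard error (SE) is the log2 fold change divided by the root of the F statistic. Symbols were matched by ID for 52073 IDs. Exon lengths, GC content and overlaps come from GENCODE release M21, whose build GRCm38 differs from that of the files, so the only coordinates given are those of RefSeq promoter windows on GRCm38.p6. Alternatives were other scalings and filters, DESeq2 1.42.0, limma-voom 3.58.1, offsets for length and GC content, and libraries left out. The members, the gene lists and the tests were chosen with earlier results of these data known. The text names all 9 members, called genes of the pathway lists or else up to 2 per list with the smallest p, Ssbp3, Rb1 and the 4 genes most like Enpp2, of which 1 is not reported here. Gm26684 and Mtrex, which overlap members, and S1pr1, Ccn1, Ccn2, Lpar5, Cftr, Spp1 and the keratin genes were added after their values were seen. Reads without molecular identifiers are no independent molecules, so floors hold for counting error alone. They also take 1 count as 1 read, which was not tested and which the share of even counts puts in doubt.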

Additional observations from a re-analysis of the deposited data

How the results depend on the processing

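Under 15 alternatives Enpp2 kept its direction and its call. The count of genes called, 1312 in the fit reported, was 2153 with no filter, 2080 with DESeq2, 124 without both shallow libraries and 519 to 1309 when 1 library was left out. The calls were split into 691 higher and 621 lower in the fit reported, and into 613 higher and 829 lower with upper-quartile factors. The count of the 9 genes called, 1 in the fit reported, was 2 with no filter, DESeq2, limma-voom or length and GC offsets, where Plpp3 joined Enpp2, and 1 to 2 when 1 library was left out. Of the pathway genes, 5 in the fit reported, 13 were called with no filter, 12 with DESeq2, 8 with limma-voom, 0 without both shallow libraries (by edgeR, with 124 calls over all genes) and 1 to 6 when 1 library was left out.

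Genes near no difference changed sign. The log2 fold change of Lpar2 was 0.30 with limma-voom, 0.60 without both shallow libraries and -0.56 to 0.32 when 1 library was left out. That of Plpp1 was 0.040 with limma-voom, 0.092 with length and GC offsets, 0.046 without both shallow libraries and -0.21 to 0.092 when 1 library was left out. That of Gpr35 was -0.034 with upper-quartile factors, -0.0017 with a filter of 1 CPM, -0.27 with limma-voom, -0.029 with length and GC offsets, -0.065 without both shallow libraries and -0.34 to 0.30 when 1 library was left out. That of Mtrex was -0.037 with upper-quartile factors, -0.048 with length and GC offsets and -0.13 to 0.11 when 1 library was left out. That of Ccn2 was 0.19 with limma-voom, 0.10 without both shallow libraries and -0.40 to 0.16 when 1 library was left out. When 1 library was left out, Ccn1 ran from -0.49 to 0.60, S1pr1 from -0.018 to 0.31 and P2ry10 from -0.31 to 1.75. The cause of these changes was not tested. Some arose with fewer libraries in the fit, and others with all 6. No paired analysis was possible because nothing ties the column numbers, which both groups share, to mice, litters or batches. Library 1 was the shallowest and library 2 the highest in acinar markers in both groups.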

Other observations

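Genes of the sister lipid sphingosine-1-phosphate, whose receptors are related to LPAR1 to LPAR3, were measured beside the LPA genes. Of 12 such genes 11 were tested, and edgeR called 0, with 2 at an unadjusted p under 0.05, while DESeq2 called 1. The receptor gene S1pr1, known from endothelium, measured 19.0, 24.5 and 22.8 CPM in knockout 1, 2 and 3, against 18.4, 17.7 and 26.4 CPM in control 1, 2 and 3. Sgpl1, the lyase that ends sphingosine-1-phosphate signalling, had a log2 difference of 0.48 that missed the threshold (edgeR adjusted p = 0.0651), and the phosphatase gene Sgpp1 one of 0.34 (edgeR adjusted p = 0.116). Sgpl1 was called in 4 of 15 alternatives and Sgpp1 in 0 of 15.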
